A study of Mus musculus with 6 samples.

Results

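Peroxisomes are single-membrane organelles that shorten very long-chain and branched fatty acids, start the synthesis of ether lipids and break down hydrogen peroxide. Their assembly depends on peroxins, the products of the Pex genes, which build the membrane and import enzymes from the cytosol after translation. In fat, peroxisomes lie close to lipid droplets and mitochondria, and brown fat is rich in them. The 32 genes described here are a list given by symbol, drawn up with earlier results of these data known, and comprise 12 peroxins and 20 enzymes, transporters and other membrane proteins of the peroxisome. All 32 were found among the 18193 genes measured, and each is represented by 1 probe set that lists no other gene, the brightest on average where there were several.

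The RNA came from white adipose tissue of C57Bl6 female mice aged 6 months. KSR2-/- mice (n = 3) are homozygous for the loss of Ksr2, which encodes kinase suppressor of Ras 2, a scaffold of the Raf-MEK-ERK cascade, and WT mice (n = 3) carry the normal gene. Each mouse gave 1 Affymetrix array, and the question put to the arrays was which genes differ between the genotypes. No treatment, Cre line or other allele is named for any mouse, and the sources used here give neither the fat depot nor the deleted part of Ksr2. Values are log2 of the authors' RMA intensity, a brightness summarized over the probes of a probe set. They are compared between mice for the same gene and not between genes.

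The arrays had median linear intensities of 22.4 to 24.2, and the number of arrays limits the precision. KSR2-/- 3 stood apart from its group, at −8.99 on the first principal component (46.95% of the variance), against 52.94 and 45.86 for KSR2-/- 1 and 2 and −37.06 to −22.86 for the WT arrays. KSR2-/- 3 and WT 3 carry lower animal numbers than the other mice, so differences are also given among the 4 higher-numbered mice and between the 2 lower-numbered ones. As a sign of RNA quality, the Gapdh controls read 4.18 log2 higher at the 3' than at the 5' end on WT 3, and 0.07 to 1.46 higher on the other arrays. Ksr2 itself read 4.47, 4.28 and 4.26 in KSR2-/- mice and 4.74, 4.04 and 4.47 in WT mice, and whether its probes lie in the deleted part is not given, so it does not check the labels. Adipoq, the adiponectin gene, read between 12.70 and 13.58 on every array.

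In KSR2-/- fat 27 of the 32 peroxisome genes had lower means than in WT fat, with a median difference of −0.42 log2, against −0.04 over all genes, of which 55.6% were lower. None of the 32 passed limma at an adjusted p under 0.05, where the background was 0.0055%, or 1 gene, Il13ra2, which is no member and was looked up after its value was seen. At an unadjusted limma p under 0.05, 8 of 32 members (25%) were lower and 0 were higher, against 5.38% of all genes lower and 6.71% higher. The KSR2-/- and WT values did not overlap in 8 members, all lower, against 8.56% of all genes lower and 7.72% higher. In whole tissue, fewer cells of a type and less RNA per cell cannot be told apart.

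The members were not evenly low in the 3 KSR2-/- mice. KSR2-/- 1 was below all 3 WT arrays in 25 members, KSR2-/- 2 in 21 and KSR2-/- 3 in 9. KSR2-/- 1 held the lowest of all 6 values in 22 members, and WT 2 the highest in 20. KSR2-/- 3 held the highest of all 6 values in 5 members, as did WT 3. Among the WT arrays, WT 1 was the lowest of its group in 25 members. Over all genes the medians of log2 intensity minus the WT mean were −0.07, −0.03 and 0.0005 on KSR2-/- 1 to 3. On WT 1 to 3 they were −0.10, 0.03 and 0.07. KSR2-/- 1 and WT 1 also had the lowest summed linear intensity over all genes, 4.67e+06 and 4.34e+06. The other arrays had 5.35e+06 to 5.47e+06. The counts in this paragraph were not made over all genes.

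**Figure D1:**
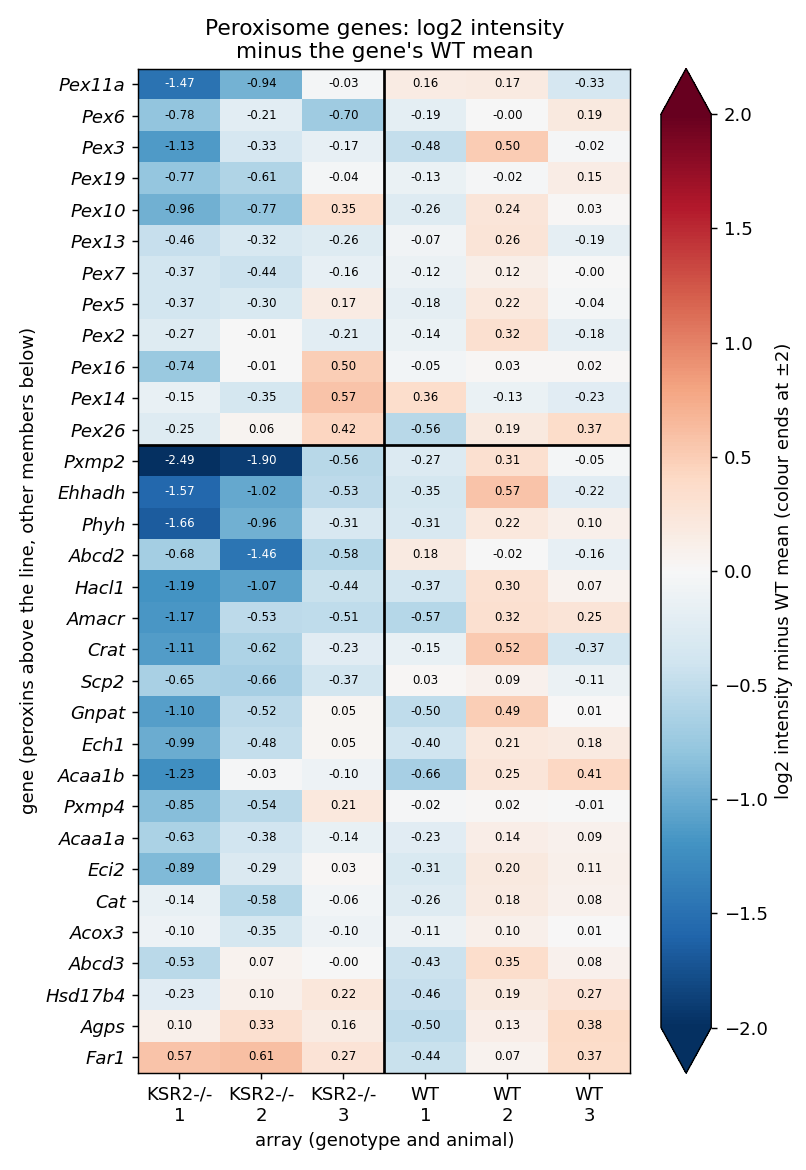
Log2 intensity of each of the 32 peroxisome genes (rows) on each array (columns) minus that gene's WT mean, with blue for lower and red for higher and the value printed in each cell. The columns of KSR2-/- 1 and 2 are blue in most rows, with Pxmp2 at −2.49 and −1.90, while KSR2-/- 3 lies closer to the WT columns.

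Among the peroxins, 10 of 12 were lower, with a median difference of −0.33 and a range of −0.82 to 0.08. At an unadjusted p under 0.05 there was 1 lower peroxin of 12 (8.33%), a share close to the background of 5.38%, and 3 of 12 (25%) were lower with groups that did not overlap, where the background was 8.56%. Pex11a, whose product elongates the peroxisome membrane before division, had the largest difference of the 12. It read 7.93, 8.46 and 9.37 in KSR2-/- mice and 9.56, 9.57 and 9.07 in WT mice. KSR2-/- 1 and 2 lay below every WT mouse and KSR2-/- 3 lay among them, so the groups overlapped. The difference was −0.82 (SE 0.37, limma adjusted p = 0.442), made up of −1.37 among the higher-numbered mice and 0.30 between the lower-numbered ones. A second Pex11a probe set gave −0.75.

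Pex6 encodes an ATPase that, with its partner at the membrane anchor PEX26, pulls the import receptor back out of the membrane. Its values were 8.37, 8.95 and 8.45 in KSR2-/- mice, against 8.97, 9.15 and 9.35 in WT mice. All 3 KSR2-/- values were below all 3 WT values, by a narrow gap between KSR2-/- 2 and WT 1. The mean was 1.48-fold lower (difference −0.56, SE 0.21, unadjusted p = 0.0307, limma adjusted p = 0.362), and all 5 Pex6 probe sets were lower, by −0.56 to −0.21. Unlike Pex11a, Pex6 had its larger difference between the lower-numbered mice, −0.90, against −0.40 among the higher-numbered ones. Pex26 read 5.70, 6.01 and 6.38 in KSR2-/- mice and 5.40, 6.15 and 6.32 in WT mice, with groups that overlapped throughout and a 95% interval of −0.61 to 0.77 for the difference. The ring-finger peroxins that ubiquitinate the receptor for export gave −0.46 for Pex10 (SE 0.35) and −0.16 for Pex2 (SE 0.19).

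Cargo enters through 2 receptors, PEX5 for the common C-terminal targeting signal and PEX7 for the N-terminal one, which dock at PEX13 and PEX14. Pex7 measured 8.97, 8.91 and 9.18 in KSR2-/- mice and 9.23, 9.46 and 9.34 in WT mice. The groups did not overlap, and the difference was −0.32 (SE 0.16, limma adjusted p = 0.482). Pex13 measured 10.08, 10.23 and 10.29 in KSR2-/- mice and 10.47, 10.80 and 10.36 in WT mice, again without overlap (difference −0.35, SE 0.18, limma adjusted p = 0.502). Pex14, its docking partner, showed no such separation. It measured 8.07, 7.86 and 8.79 in KSR2-/- mice and 8.58, 8.09 and 7.99 in WT mice, a difference of 0.02 (95% interval −0.65 to 0.69) made up of −0.37 among the higher-numbered mice and 0.80 between the lower-numbered ones. Pex5 differed by −0.17 (SE 0.21), and its second probe set by 0.08.

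The peroxins that insert membrane proteins gave −0.55 for Pex3 (SE 0.34), −0.47 for Pex19 (SE 0.22) and −0.08 for Pex16 (SE 0.30). Pex3 is the membrane dock of PEX19, the chaperone of membrane proteins, and its second probe set gave −1.09. The other Pex19 probe sets gave −0.06 and −0.04, so the difference of Pex19 rests on its brightest one. Pex16 ranged from 8.49 to 9.72 within the KSR2-/- mice and only from 9.18 to 9.25 within the WT mice, and its KSR2-/- values lay on both sides of the WT ones.

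**Figure D2:**
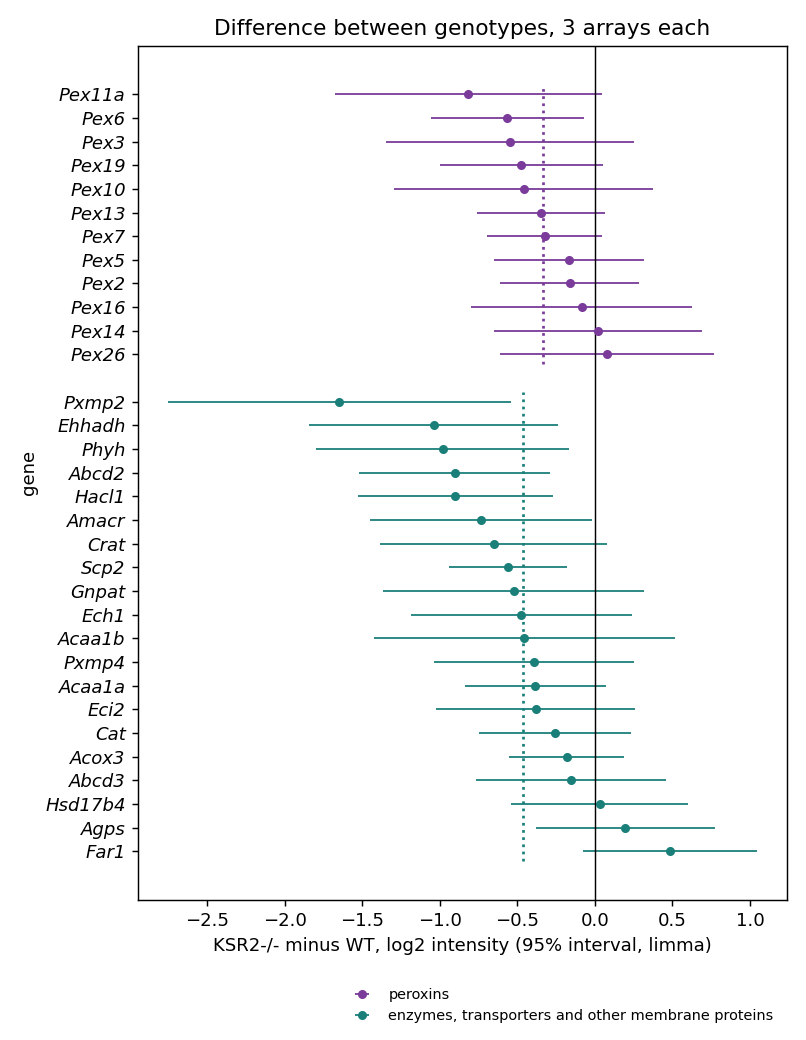
KSR2-/- minus WT difference in log2 intensity for each gene, as a point with its 95% interval from limma (3 arrays each), peroxins in the upper block and the other members in the lower. Dotted lines mark the medians, −0.33 for peroxins and −0.46 for the other members, and 8 intervals, that of Pex6 among them, lie wholly below 0 before adjustment for the number of genes.

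Of the 20 enzymes, transporters and other membrane proteins, 17 were lower, with a median difference of −0.46 and a range of −1.65 to 0.48. At an unadjusted p under 0.05, 7 of 20 (35%) were lower, and 5 of 20 (25%) were lower with groups that did not overlap, against 5.38% and 8.56% of all genes. Pxmp2, a channel-forming protein of the peroxisome membrane that lets small metabolites through, differed most among the 32. It measured 7.42, 8.02 and 9.36 in KSR2-/- mice and 9.64, 10.23 and 9.87 in WT mice. Every KSR2-/- value was below every WT value, with KSR2-/- 3 nearest to them. The mean was 3.13-fold lower (difference −1.65, SE 0.47, unadjusted p = 0.00970, limma adjusted p = 0.275), made up of −2.22 among the higher-numbered mice and −0.51 between the lower-numbered ones. Without KSR2-/- 3 it passed limma (−2.19, adjusted p = 0.0114), the 1 member of 32 that did, where 1.33% of all genes were then called lower and 3.16% higher. With each other single array left out, its limma adjusted p was 0.345 to 0.758. Without KSR2-/- 1 or 2 or WT 1 or 2, no gene passed. Pxmp2 lies on chromosome 5 like Ksr2, as the 219th nearest protein-coding gene. So does the member Acox3, as the 988th nearest, and an effect of position was not tested.

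The ABC transporter genes encode the pumps that bring acyl-CoA into the organelle. Abcd2, the very long-chain acyl-CoA transporter that is abundant in fat, measured 10.14, 9.37 and 10.25 in KSR2-/- mice and 11.01, 10.81 and 10.66 in WT mice. The groups were separate, with KSR2-/- 2 the lowest. The difference was −0.91 (SE 0.26, unadjusted p = 0.0103, limma adjusted p = 0.277), or 1.87-fold lower, and the other 3 Abcd2 probe sets were also lower, by −0.98 to −0.31. Abcd3, which carries branched and dicarboxylic acyl-CoA, differed by −0.15 (95% interval −0.77 to 0.46). Pxmp4, a membrane protein, differed by −0.39 (SE 0.27) on its brightest probe set and 0.19 on the other.

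The 9 genes of fatty acid beta-oxidation in the peroxisome had a median difference of −0.45, and 8 were lower. Ehhadh encodes the bifunctional enzyme that hydrates and dehydrogenates straight-chain acyl-CoA. It measured 7.10, 7.65 and 8.14 in KSR2-/- mice and 8.32, 9.24 and 8.45 in WT mice, without overlap and 2.06-fold lower (difference −1.04, SE 0.34, unadjusted p = 0.0183, limma adjusted p = 0.311). Scp2, whose longer product is the thiolase for branched chains and whose shorter one is a sterol carrier, measured 11.71, 11.70 and 11.99 in KSR2-/- mice and 12.38, 12.45 and 12.24 in WT mice. These groups too were separate, and both were tight, with SDs of 0.17 and 0.10 (n = 3 each). The Scp2 difference was −0.56 (SE 0.16, unadjusted p = 0.00994, limma adjusted p = 0.277). Its other 3 probe sets gave −0.30, −0.05 and −0.997.

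Not every enzyme of the pathway was lower to that extent. Hsd17b4 encodes the other bifunctional enzyme, which handles branched chains and bile acid precursors, and its difference was 0.03 (95% interval −0.54 to 0.60), with −0.01 on a second probe set. Acox3, an oxidase of branched acyl-CoA, differed by −0.18 (SE 0.16) and, on its second probe set, by 0.15. The thiolases of straight chains are a pair of close copies, and 2 further probe sets that list both genes were not used, so signal may be shared between them. Acaa1a differed by −0.39 (SE 0.19) and Acaa1b by −0.45 (SE 0.41). The carnitine acetyltransferase Crat, which serves the export of acetyl units, differed by −0.65 (SE 0.31), −1.05 among the higher-numbered mice and 0.14 between the lower-numbered ones. Ech1 and Eci2, which move double bonds in unsaturated chains, differed by −0.47 (SE 0.30) and −0.38 (SE 0.27).

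All 3 members grouped under alpha-oxidation were lower, with a median difference of −0.90. Each had an unadjusted limma p under 0.05, where 5.38% of all genes were lower. Other members that handle branched chains were grouped elsewhere, and differed by 0.03 (Hsd17b4), −0.15 (Abcd3), −0.18 (Acox3) and −0.56 (Scp2). Phyh, the hydroxylase that begins the removal of phytanic acid, measured 8.66, 9.36 and 10.01 in KSR2-/- mice and 10.01, 10.54 and 10.43 in WT mice. KSR2-/- 3 and WT 1 were level, and the other KSR2-/- values were below every WT value. The difference was −0.98 (SE 0.35, unadjusted p = 0.0248, limma adjusted p = 0.334). Hacl1, the lyase that takes 1 carbon off the hydroxylated chain, measured 7.33, 7.46 and 8.09 in KSR2-/- mice and 8.16, 8.83 and 8.60 in WT mice. The Hacl1 groups did not overlap, and the mean was 1.87-fold lower (difference −0.90, SE 0.27, unadjusted p = 0.0117, limma adjusted p = 0.282). Amacr, the racemase that turns branched chains into the form that beta-oxidation accepts, measured 6.35, 6.99 and 7.02 in KSR2-/- mice and 6.95, 7.85 and 7.77 in WT mice. WT 1 lay among the KSR2-/- values. Its difference was −0.74 (SE 0.30, unadjusted p = 0.0456, limma adjusted p = 0.403), and it was about as large between the lower-numbered mice, −0.76, as among the higher-numbered ones, −0.72.

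**Figure D3:**
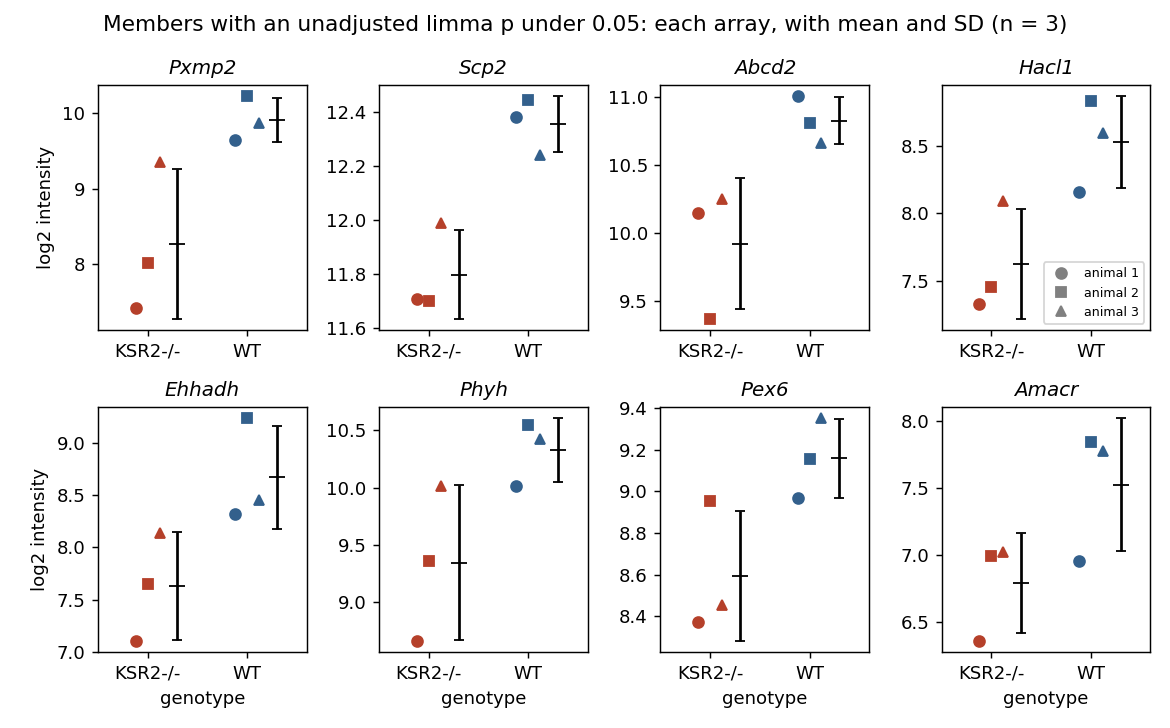
Log2 intensity on each array of the 8 members with an unadjusted limma p under 0.05, KSR2-/- mice at the left and WT mice at the right of each panel, with the mean and SD (n = 3) beside the points. Axes do not start at 0. In 6 of the panels the KSR2-/- and WT points are separate, and in the Phyh and Amacr panels they meet or overlap at WT animal 1.

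Ether lipid synthesis starts in the peroxisome and was the one group of roles in which most members were not lower. Far1, the reductase that makes the fatty alcohol and limits the rate of the pathway, measured 8.15, 8.19 and 7.86 in KSR2-/- mice and 7.14, 7.65 and 7.95 in WT mice. WT 3 lay among the KSR2-/- values, and WT 1 was the lowest. The difference was 0.48 (SE 0.24, unadjusted p = 0.0819, limma adjusted p = 0.489), and all 5 Far1 probe sets were higher, by 0.25 to 0.54. Among the higher-numbered mice it was 0.77, and between the lower-numbered ones −0.10. Agps, which swaps the acyl chain for that alcohol, measured 7.67, 7.90 and 7.73 in KSR2-/- mice and 7.06, 7.70 and 7.94 in WT mice, with the KSR2-/- values inside the WT range (difference 0.20, 95% interval −0.38 to 0.77). Gnpat, the acyltransferase of the first step, differed by −0.52 (SE 0.36). Cat, the catalase that removes hydrogen peroxide, differed by −0.26 (SE 0.21), with −0.27 on its second probe set.

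Promoter windows from 250 bases before to 50 bases after the gene start were taken from RefSeq (GRCm38.p6), where 25 of the 32 members had at least 1. Pxmp2, Abcd2 and Amacr, which had an unadjusted limma p under 0.05, had no window. The 5 members with an unadjusted p under 0.05 and a single window are printed 5′ to 3′. They lie at chr16:21787785-21788084 (Ehhadh, minus strand), chr4:108118498-108118797 (Scp2, minus), chr2:4918746-4919045 (Phyh, plus), chr14:31640916-31641215 (Hacl1, minus) and chr17:46711226-46711525 (Pex6, plus). Capitals mark 3 motifs on either strand, the GC box GGGCGG, the CCAAT box CCAAT and the nuclear receptor motif AGGTCA.
Ehhadh: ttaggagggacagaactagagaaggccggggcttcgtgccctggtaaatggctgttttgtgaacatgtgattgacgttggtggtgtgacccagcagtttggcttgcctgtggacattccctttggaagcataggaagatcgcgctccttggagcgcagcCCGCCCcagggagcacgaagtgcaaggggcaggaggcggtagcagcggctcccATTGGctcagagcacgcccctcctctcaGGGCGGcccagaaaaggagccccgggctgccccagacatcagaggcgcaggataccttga
Scp2: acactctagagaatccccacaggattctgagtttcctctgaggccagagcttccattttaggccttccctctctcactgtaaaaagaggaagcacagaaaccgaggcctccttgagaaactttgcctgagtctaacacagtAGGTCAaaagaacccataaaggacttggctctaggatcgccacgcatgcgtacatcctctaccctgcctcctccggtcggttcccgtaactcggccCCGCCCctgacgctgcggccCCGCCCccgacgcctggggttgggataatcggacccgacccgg
Phyh: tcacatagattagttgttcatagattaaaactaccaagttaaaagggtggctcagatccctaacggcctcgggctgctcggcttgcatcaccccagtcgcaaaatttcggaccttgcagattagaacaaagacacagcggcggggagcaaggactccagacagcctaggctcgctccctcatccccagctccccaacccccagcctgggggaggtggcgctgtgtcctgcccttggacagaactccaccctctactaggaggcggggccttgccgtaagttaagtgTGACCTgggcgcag
Hacl1: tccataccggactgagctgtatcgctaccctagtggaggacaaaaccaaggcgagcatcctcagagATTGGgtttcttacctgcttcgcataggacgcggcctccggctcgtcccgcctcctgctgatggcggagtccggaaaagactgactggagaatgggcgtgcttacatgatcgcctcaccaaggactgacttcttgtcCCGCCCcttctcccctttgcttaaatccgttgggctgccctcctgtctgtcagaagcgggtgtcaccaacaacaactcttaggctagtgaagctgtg
Pex6: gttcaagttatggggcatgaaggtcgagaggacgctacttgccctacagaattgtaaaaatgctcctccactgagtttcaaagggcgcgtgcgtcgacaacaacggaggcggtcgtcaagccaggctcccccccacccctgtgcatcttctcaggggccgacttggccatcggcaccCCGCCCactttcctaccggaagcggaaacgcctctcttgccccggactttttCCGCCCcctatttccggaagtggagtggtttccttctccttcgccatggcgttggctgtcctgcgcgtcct
Ehhadh held 2 GC boxes and 1 CCAAT box, Hacl1 1 of each, Pex6 2 GC boxes, Scp2 2 GC boxes and 1 AGGTCA, and Phyh 1 AGGTCA. A GC box was found in 20 of the 25 members (80%), 8 of 10 peroxins and 12 of 15 others, and in 38.2% of the 27025 genes with a window, a gene counting where any of its windows matched. The CCAAT box was in 12 of 25 (48%) against 41.1% of all such genes, with 3 of 10 peroxins and 9 of 15 others. AGGTCA was in 3 of 25 (12%), Cat, Phyh and Scp2, against 18.1% of all such genes. The spaced repeat of that motif which PPAR and RXR bind, searched as AGGNCANAGGNCA on both strands and able to overlap AGGTCA, was in 0 of 25 and in 0.451% of all such genes. The 27025 genes were not limited to the 18193 measured on the arrays, so they are not a matched background for the members. A match or its absence concerns only the letters in these windows.

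Enzymes and transporters were set against peroxins on each array, as the median over the genes of log2 intensity minus the WT mean of the gene. For enzymes and transporters this was −0.87, −0.52 and −0.10 on KSR2-/- 1 to 3 and −0.33, 0.21 and 0.08 on WT 1 to 3. For peroxins it was −0.60, −0.32 and −0.04 on KSR2-/- 1 to 3 and −0.13, 0.18 and −0.01 on WT 1 to 3. Both groups ordered the arrays alike within each genotype. In both, KSR2-/- 3 lay within the WT range, above WT 1 and below WT 2 and 3. WT 1 also had the lowest summed linear intensity over all genes, 4.34e+06, and these medians were not scaled to it. Enzymes lay below peroxins by −0.27, −0.20 and −0.06 on the KSR2-/- arrays and by −0.20 on WT 1, with 0.03 and 0.09 the other way on WT 2 and 3. The medians of the genotype differences stood −0.13 apart, and that gap was not tested. Leaving out KSR2-/- 1 brought it to −0.02 and leaving out WT 3 to −0.03, while it was −0.28 without KSR2-/- 3, −0.21 without KSR2-/- 2 and −0.23 without WT 1.

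Among the higher-numbered mice 28 of 32 members were lower in KSR2-/- mice, with a median of −0.51, and between the lower-numbered mice 23 of 32, with a median of −0.12. Over all genes 9725 and 10776 of 18193 were lower in these 2 comparisons, and the medians were −0.03 and −0.07. Between the lower-numbered mice 6 of 12 peroxins and 17 of 20 other members were lower, a contrast that was not tested. Pex14, Pex16, Pex10, Pex11a and Pex5 were higher there by 0.80, 0.47, 0.32, 0.30 and 0.21. These are 1 mouse of each genotype, so the values have no replicate check.

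**Figure D4:**
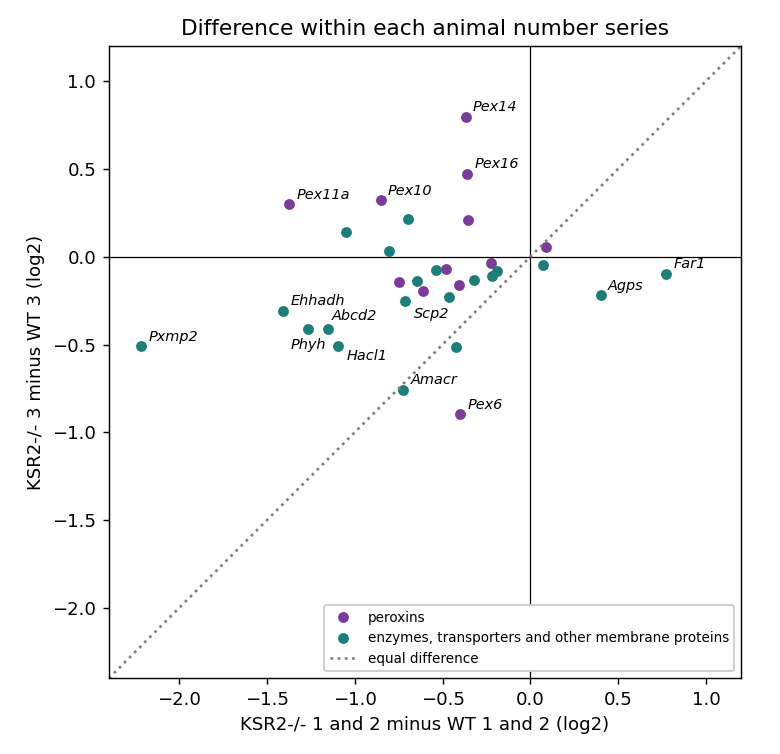
KSR2-/- minus WT difference in log2 intensity within the higher-numbered animals (2 mice of each genotype, horizontal axis) and within the lower-numbered animals (1 of each, vertical axis), 1 point per gene, with the dotted line at equal differences. Most points lie left of 0 and above the dotted line, as Pxmp2 does at −2.22 and −0.51, while Pex6, at −0.40 and −0.90, lies below it.

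Other genes of the peroxisome were listed by role. Of 52 listed, 44 were analysed here, 31 of them lower, with a median difference of −0.17. None passed limma at an adjusted p under 0.05. At an unadjusted p under 0.05, 4 were lower and 2 higher (9.09% and 4.55%), shares near the 5.38% and 6.71% of all genes. Some of the 44 read very low, with Hao2, Hao1, Far2, Pipox and Dao at percentiles 0.49 to 18.3 of all gene means. Others were bright, such as Idh1 at percentile 98.9. Among the members the lowest was Acox3, at percentile 35.3. A loss can hardly show in a gene that reads so low as Hao2. The shares and the median therefore do not describe the brighter genes of the list, which were not tested apart. Ephx2, the soluble epoxide hydrolase, had the largest lower difference, −1.17 (SE 0.37, unadjusted p = 0.0153, limma adjusted p = 0.302), with separate groups. Acad11, an acyl-CoA dehydrogenase, differed by −1.10 (SE 0.37), Ddo, the D-aspartate oxidase, by −0.70 (SE 0.24), and Mlycd, which breaks down malonyl-CoA, by −0.58 (SE 0.17). Higher were Pex5l, a relative of the Pex5 receptor known from neurons, at 5.66, 5.38 and 5.50 in KSR2-/- mice and 4.64, 4.04 and 4.13 in WT mice, and the thioesterase Acot8. Pex5l differed by 1.24 (SE 0.21, unadjusted p = 0.000494, limma adjusted p = 0.193), by 1.18 among the higher-numbered mice and 1.38 between the lower-numbered ones. It passed limma without KSR2-/- 3 (adjusted p = 0.0458), where 3.16% of all genes were called higher. No gene passed without KSR2-/- 1 or 2 or WT 1 or 2. The Pex5l values rest on the brightest of its 4 probe sets, and the mean of the 4 differed by 0.63. Acot8 differed by 0.43 (SE 0.18, limma adjusted p = 0.406).

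Transcriptional regulators of these genes were read in the same fit. PPARα with RXRα switches on peroxisomal beta-oxidation in liver, and PGC-1α is a coactivator of PPARα. Ppargc1a, the PGC-1α gene, measured 3.63, 3.40 and 3.92 in KSR2-/- mice and 5.57, 5.61 and 4.68 in WT mice, with separate groups and a difference of −1.64 (SE 0.29, unadjusted p = 0.000706, limma adjusted p = 0.193). It passed limma without KSR2-/- 3 (−1.77, adjusted p = 0.0366), where 1.33% of all genes were called lower. With single arrays left out its difference ran from −1.94 to −1.48, and without KSR2-/- 1 or 2 or WT 1 or 2 no gene passed. The mean of the Ppargc1a probe sets differed by −1.15, and its mean level lay at percentile 33.8 of all genes. Pparg differed by −0.80 (SE 0.40), Rxra by −0.34 (SE 0.32), Ppara by −0.21 (SE 0.24) and Ppard by 0.03 (SE 0.28), all with overlapping groups. The choice of probe set moved some of these, since the mean of the probe sets differed by −0.64 for Ppara and by −0.13 for Ppard.

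The chain-shortening enzymes of mitochondria, which take up the shortened acyl chains, were the nearest group for comparison. All 16 genes of mitochondrial beta-oxidation were lower, with a median difference of −0.37, and 5 (31.2%) had an unadjusted p under 0.05, against 55.6% and 5.38% of all genes. These were Eci1 (−1.15), Echs1 (−1.09), Acadvl (−0.61), Etfa (−0.46) and Hadh (−0.45), none past limma at an adjusted p under 0.05. Echs1 passed limma without KSR2-/- 3 (adjusted p = 0.0309), where 1.33% of all genes were called lower. Neither it nor any other gene passed without KSR2-/- 1 or 2 or WT 1 or 2. The list's median on KSR2-/- 1 to 3 was −0.73, −0.29 and −0.15, and on WT 1 to 3 −0.28, 0.27 and 0.12. The median of the peroxisome enzymes and transporters was −0.46, and the difference between these medians was not tested.

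Markers of cell types were read on the same arrays. All 11 measured macrophage markers of 12 listed were higher in KSR2-/- fat, 8 of them at an unadjusted p under 0.05 (6.71% of all genes), and their summed linear intensity was 38704, 36302 and 14142 on KSR2-/- 1 to 3 and 10031 to 11581 on the WT arrays. The 9 measured adipocyte markers of 11 listed summed to 41881, 48072 and 64899 on KSR2-/- 1 to 3 and 55158 to 61887 on the WT arrays. That list did not move one way, since 7 were lower and 2 higher, with a median difference of −0.21 and, at an unadjusted p under 0.05, 3 lower (Adipoq, Retn and Slc2a4) and 1 higher. The higher one was Lep, the leptin gene, at 11.80, 12.40 and 12.46 in KSR2-/- mice and 9.42, 11.13 and 11.76 in WT mice (difference 1.45, SE 0.57, unadjusted p = 0.0370, limma adjusted p = 0.380). Lpl and Fabp4 differed by −0.01 and −0.06. KSR2-/- 1 and 2, the arrays with the lowest peroxisome values, had the highest macrophage sums and the lowest adipocyte sums. WT 1 had a lower enzyme and transporter median than KSR2-/- 3, −0.33 against −0.10. Its macrophage sum was the lowest of all arrays, 10031, and its adipocyte sum the lowest of the WT arrays, 55158. WT 1 also had the lowest summed linear intensity over all genes, 4.34e+06, against 5.47e+06 and 5.44e+06 on WT 2 and 3. The marker sums were not scaled to that total, so the order of the arrays can depend on it. The 6 brown and beige markers summed to 369 to 790 on KSR2-/- arrays and 1180 to 2685 on WT arrays, a sum carried by Cidea and Cox8b, which differed by −3.07 and −1.73. The median of the 6 was −0.18, with Elovl3 at −0.29, Dio2 at −0.07 and Prdm16 at 0.19. Ucp1, the defining brown fat gene, was 6.25 on KSR2-/- 3, 7.27 on WT 3 and 3.79 to 4.24 elsewhere. Muscle markers, 4 of 4 measured, summed to 258, 260 and 1108 on KSR2-/- 1 to 3 and 190, 367 and 1291 on WT 1 to 3, and epithelial and mesothelial markers, 7 of 7, to 595, 782 and 2757 and to 720, 821 and 2038. Summed levels of the endothelial (5 of 5), progenitor (5 of 5) and lymphocyte (4 of 5) markers overlapped between the genotypes. An array lists no gene at 0, and the part of these cell types in the peroxisome values was not tested.

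**Figure D5:**
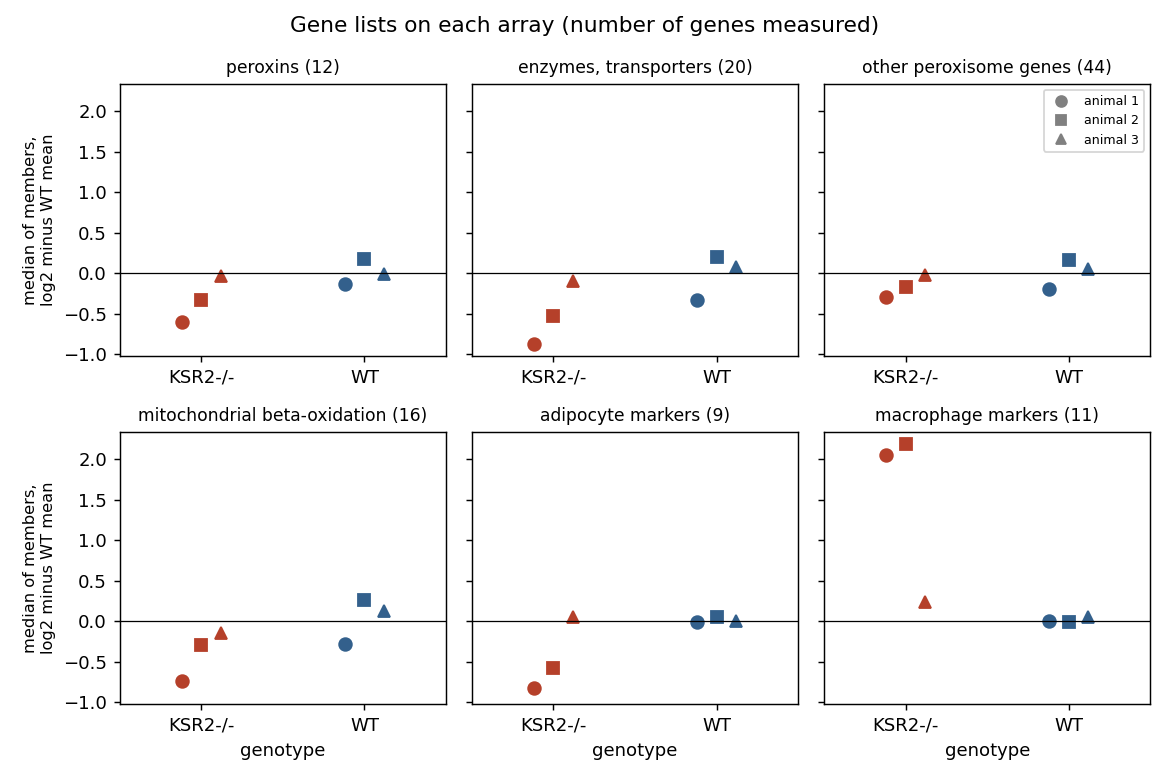
Median over the genes of each list of log2 intensity minus the gene's WT mean, 1 point per array, KSR2-/- mice at the left and WT mice at the right of each panel. KSR2-/- 1 and 2 are the lowest points for enzymes and transporters (−0.87 and −0.52) and for adipocyte markers (−0.82 and −0.57), and the highest for macrophage markers (2.06 and 2.19), and KSR2-/- 3 lies near the WT points.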

How the data were processed

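Total RNA of white adipose tissue from 3 KSR2-/- and 3 WT mice was measured, 1 array per mouse. The authors deposited RMA intensity values, per the submitters' processing notes, which give no version. The linear scale was read from the values. RMA fits each probe set over all arrays, so arrays are not independent there. The deposited values did not have a common distribution, with maximum linear intensities of 14273 to 16422 and medians of 22.4 to 24.2. Log2 was taken without a pseudocount. Of 45101 probe sets, 34945 listed 1 gene symbol, 932 several and 9160 none, and 64 were controls. Symbols were updated through gene identifiers to RefSeq (GRCm38.p6), which matched 34741 probe sets.

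The genotypes were compared over 18193 genes with limma 3.58.1 (R 4.3.3, lmFit and eBayes, prior degrees of freedom 3.06), with two-sided p-values adjusted by Benjamini-Hochberg over every gene and called under 0.05. Whether mice shared litters is not given. Replicates were numbered in accession order. The members and lists were chosen with earlier results of these data known, so no p was computed over a list. Values on every array are given for members with separate groups or an unadjusted p under 0.05, and for the 2 peroxins and 2 other members that differed most in each direction. All regulators and, from the lists of other peroxisome and of mitochondrial genes, those with an unadjusted p under 0.05 are named, and cell type markers are given mainly as lists. Alternatives changed the filter, probe set, normalization, variance prior, animal number series, RNA quality covariate and arrays.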

Additional observations from a re-analysis of the deposited data

How the results depend on the processing

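No member passed limma (8 at an unadjusted p under 0.05) in the fit reported, and 1, Pxmp2, passed among the higher-numbered mice alone (1 of 32) and without KSR2-/- 3, so that leaving out single arrays gave 0 to 1. The count over all genes was 1, and it was 12 among genes above the median mean, 12 with quantile normalization repeated, 16 with arrays centred on their median gene, 10 with a variance trend, 6 with the Gapdh covariate, 487 within the higher-numbered series, 0 with every probe set fitted and 0 with the series as a block. Leaving out single arrays gave 0 to 816, with 816 without KSR2-/- 3, 9 without WT 3 and 0 without any other array. The median differences of all members, of the peroxins and of the other members stayed below 0 in all 16 alternatives, and with single arrays left out they were −0.61 to −0.24, −0.40 to −0.23 and −0.67 to −0.25. The gap of −0.13 between the medians of enzymes and peroxins was −0.29 with the second brightest probe sets, −0.27 within the higher-numbered series, −0.22 with the mean of all probe sets, −0.04 with the Gapdh covariate and −0.28 to −0.02 with single arrays left out. Of the 32 members 23 kept their sign in all alternatives and 9 did not, and the cause was not tested. With the second brightest probe set Acox3 gave 0.15, Pex16 0.02, Pex5 0.08, Pxmp4 0.19 and Hsd17b4 −0.01. Hsd17b4 gave −0.01 and Pex14 −0.05 with quantile normalization repeated, and −0.01 and −0.02 with arrays centred. Pex14 also gave −0.37 within the higher-numbered series and −0.06 with the Gapdh covariate. With single arrays left out, Abcd3 ran from −0.37 to 0.03, Agps from −0.06 to 0.38, Hsd17b4 from −0.20 to 0.17, Pex14 from −0.25 to 0.21, Pex16 from −0.37 to 0.24 and Pex26 from −0.20 to 0.26. No paired analysis was possible because the labels give no replicate numbers shared by the genotypes, and the series block groups mice without pairing them.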
